A study of Mus musculus with 8 samples.

Results

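9 genes of growth arrest and cell cycle entry were followed through lists of accessible chromatin peaks of mouse mammary epithelial cells. 5 of the 9 genes encode cyclin-dependent kinase (CDK) inhibitors, which hold cells out of the cycle (*Cdkn1a*, *Cdkn1b*, *Cdkn1c*, *Cdkn2a* and *Cdkn2b*), and 4 encode drivers of entry into it (*Ccnd1*, *Ccnd2*, *Cdk6* and *Myc*). The genes were chosen by name from 21951 annotated protein-coding genes. A peak belonged to a gene when it overlapped, by at least 1 bp, the annotated span of the gene with 20 kb on each side, here called its locus. Together the loci held 95 of the 129466 peaks in the 8 lists, and merging the overlapping peaks of all lists gave 24 regions at these loci (8 at inhibitors, 16 at drivers) of 37230 in the genome. Each region is named by its gene and by the distance of its midpoint from the nearest start site of that gene, with a minus sign for upstream.

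The lists came from FAIRE-seq, which sequences the DNA left free of protein after crosslinking, so that open chromatin is over-represented. EpH4, a mouse mammary gland epithelial line grown in 10% serum, was compared with EpRas, its derivative transformed with H-Ras, grown in 4% serum. Cells of either line were left untreated or kept for 8 days with TGF-β3 (a transforming growth factor, here TGF-β) at 1 ng/ml, with 2 libraries in each of the 4 groups, described in the study as biological replicates. Serum went with the line, so that the contribution of H-Ras and of serum to a difference between the lines cannot be told apart, and the sources used here do not say whether EpRas is 1 clone.

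CDK inhibitors of the Cip/Kip family (p21, p27 and p57, encoded by *Cdkn1a*, *Cdkn1b* and *Cdkn1c*) bind cyclin-CDK complexes, while those of the Ink4 family (p16 from *Cdkn2a* and p15 from *Cdkn2b*) bind Cdk4 and Cdk6 and keep D-type cyclins from activating them. In normal epithelial cells TGF-β is known for halting the cycle by raising p15 and p21 and lowering Myc, and Ras signalling for raising cyclin D1 and AP1 activity. Open chromatin marks promoters and enhancers that transcription factors can reach, but neither a peak nor its lack is a measure of transcription.

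The sequences below were read from the plus strand of GRCm38.p6 (RefSeq), the build to which mm10 belongs, and are shown because the results turn on them: the promoters of *Cdkn1a* and *Cdkn1b* that had peaks in EpRas alone (up to the base before the start site), the *Cdkn2a* region called most often, and regions of *Cdkn1a*, *Cdk6* and *Myc* with a peak in 7 or 8 libraries. Where a region was longer than 300 bp, the middle 300 bp are given. Capitals mark the words searched for: TGAGTCA or its complement TGACTCA (AP1, the factor of the Fos and Jun proteins) and CAGACA or its complement TGTCTG (a word bound by Smads, the factors that carry the TGF-β signal).
Cdkn1a -0.07 kb (chr17:29093578-29093768): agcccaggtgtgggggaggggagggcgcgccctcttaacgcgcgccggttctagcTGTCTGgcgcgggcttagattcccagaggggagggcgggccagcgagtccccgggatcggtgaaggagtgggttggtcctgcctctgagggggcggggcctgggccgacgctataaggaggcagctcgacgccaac
Cdkn1a +1.77 kb (chr17:29095403-29095702): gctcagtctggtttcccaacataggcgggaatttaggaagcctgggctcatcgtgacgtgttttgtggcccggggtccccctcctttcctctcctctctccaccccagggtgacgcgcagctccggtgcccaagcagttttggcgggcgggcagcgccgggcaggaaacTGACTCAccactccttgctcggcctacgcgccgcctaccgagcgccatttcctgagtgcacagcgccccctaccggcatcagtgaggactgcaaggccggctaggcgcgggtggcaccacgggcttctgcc
Cdkn1b -0.10 kb (chr6:134920149-134920400): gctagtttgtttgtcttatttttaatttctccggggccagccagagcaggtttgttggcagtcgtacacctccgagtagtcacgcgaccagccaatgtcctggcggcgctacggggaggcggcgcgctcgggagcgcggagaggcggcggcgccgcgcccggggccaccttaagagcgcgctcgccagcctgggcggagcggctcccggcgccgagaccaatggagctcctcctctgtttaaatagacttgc
Cdkn2a +24.31 kb (chr4:89257731-89258030): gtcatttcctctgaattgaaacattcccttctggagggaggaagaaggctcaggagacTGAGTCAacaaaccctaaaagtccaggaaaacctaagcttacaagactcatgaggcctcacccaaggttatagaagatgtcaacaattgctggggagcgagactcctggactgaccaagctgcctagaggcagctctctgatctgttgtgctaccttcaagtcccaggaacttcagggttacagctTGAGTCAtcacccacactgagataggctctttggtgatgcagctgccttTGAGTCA
Cdk6 +150.22 kb (chr5:3494386-3494685): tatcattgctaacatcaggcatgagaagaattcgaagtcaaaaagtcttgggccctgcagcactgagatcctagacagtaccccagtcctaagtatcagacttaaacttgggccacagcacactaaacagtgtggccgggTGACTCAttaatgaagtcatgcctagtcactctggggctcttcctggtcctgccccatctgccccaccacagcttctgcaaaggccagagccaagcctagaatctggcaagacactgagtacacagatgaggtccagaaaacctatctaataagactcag
Cdk6 +157.54 kb (chr5:3501700-3501999): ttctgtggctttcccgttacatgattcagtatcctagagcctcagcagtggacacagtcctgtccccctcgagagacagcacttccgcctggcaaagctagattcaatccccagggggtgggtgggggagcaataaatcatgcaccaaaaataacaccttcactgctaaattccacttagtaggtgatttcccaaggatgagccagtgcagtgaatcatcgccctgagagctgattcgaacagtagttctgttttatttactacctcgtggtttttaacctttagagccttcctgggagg
Cdk6 +194.66 kb (chr5:3538827-3539126): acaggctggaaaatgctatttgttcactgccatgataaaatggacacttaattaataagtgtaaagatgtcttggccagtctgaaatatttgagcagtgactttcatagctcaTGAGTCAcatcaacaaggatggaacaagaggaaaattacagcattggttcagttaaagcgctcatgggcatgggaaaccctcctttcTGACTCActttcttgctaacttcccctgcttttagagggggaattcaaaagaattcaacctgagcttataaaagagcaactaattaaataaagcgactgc
Myc -1.88 kb (chr15:61983360-61983659): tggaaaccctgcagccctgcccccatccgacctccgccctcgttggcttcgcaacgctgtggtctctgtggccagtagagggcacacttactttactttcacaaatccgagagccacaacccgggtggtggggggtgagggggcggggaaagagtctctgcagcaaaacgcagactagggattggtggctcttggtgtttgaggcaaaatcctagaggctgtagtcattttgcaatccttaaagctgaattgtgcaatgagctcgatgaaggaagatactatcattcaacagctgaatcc
Myc +11.71 kb (chr15:61998983-61999282): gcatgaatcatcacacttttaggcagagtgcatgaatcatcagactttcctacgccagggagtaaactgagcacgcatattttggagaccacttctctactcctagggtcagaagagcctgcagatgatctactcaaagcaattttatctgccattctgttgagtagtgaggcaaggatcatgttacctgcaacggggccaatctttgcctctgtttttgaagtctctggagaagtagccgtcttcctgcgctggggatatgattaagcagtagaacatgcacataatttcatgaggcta

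The lists differed in length, from 10821 peaks (EpH4 TGF-β replicate 2) to 27337 (EpRas TGF-β replicate 1), and held no read counts, so the sequencing depth is unknown and a site without a peak may be open below the limit of calling. The files give each peak a score whose meaning is not stated, so scores were turned into percentiles within the list of their library, with 100 for the highest. On average chromosome 6 held 6.43% of the peaks in EpH4 and 4.26% in EpRas, chromosome 5 held 7.53% and 5.57%, chromosome 4 held 5.71% and 6.92%, and chromosome 7 held 4.73% and 5.78%, each without overlap between the lines. The shares of chromosome 15 (5.48% and 6.33%) and chromosome 17 (4.97% and 5.24%) overlapped. As a check of the label, 5 of 8 mammary epithelial markers had a promoter peak (midpoint within 2 kb of a start site) in at least 1 library, *Krt14* alone in all 8, and *Krt5*, *Epcam* and *Elf5* in 0. Of the other cell types, fibroblast markers had one in 2 of 4 cases (*Pdgfra* in 4 libraries, *Col1a1* in 2), leukocyte markers in 1 of 3 and endothelial markers in 0 of 2. Over all protein-coding genes, 42.5% had a promoter peak in at least 1 library and 10.6% in all 8. Lists this short cannot settle the cell type beside that share. Some markers moved with the line. *Cdh1* had a promoter peak in 4 EpH4 and 0 EpRas libraries, *Cldn4* in 4 and 1, *Cd68* in 0 and 3 and *Col1a1* in 0 and 2, so that 4 to 5 of the 8 epithelial markers had one in a library of EpH4 and 1 to 4 in one of EpRas. The part of this in the differences between the lines was not tested.

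The number of peaks at a locus did not separate the lines or the treatments for any of the 9 genes. Of 15756 protein-coding loci with a peak, 4.27% had more peaks in every EpRas than in every EpH4 library and 0.552% had fewer, while 0.394% had more in every TGF-β than in every untreated library and 0.0444% had fewer. The exact permutation test of 4 against 4 libraries cannot give a p-value under 0.0286, and after Benjamini-Hochberg adjustment over all loci the smallest was 0.593 for the line and 1.00 for TGF-β, so that no locus in the genome passed (759 loci for the line and 69 for TGF-β had the smallest p of the exact permutation test before adjustment). 2 of the 9 loci, *Cdkn1c* and *Cdkn2b*, had no peak in any library, as did 28.2% of all protein-coding loci.

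**Figure D1:**
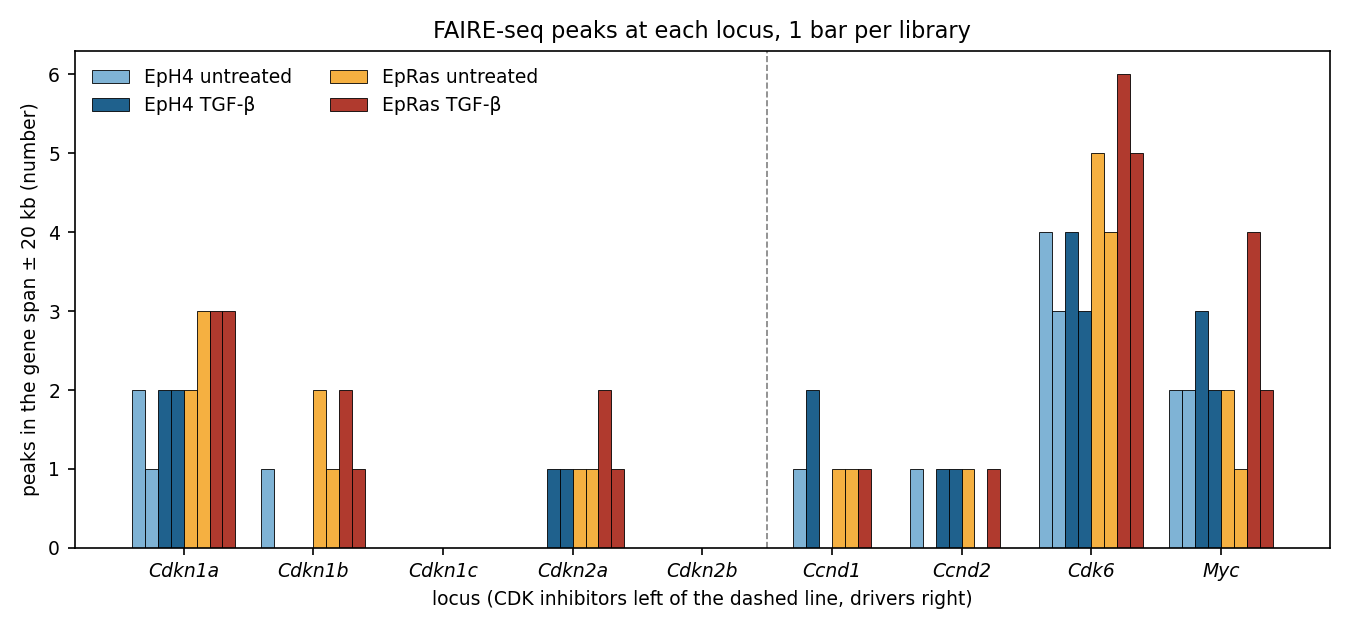
Number of FAIRE-seq peaks in the gene span with 20 kb on each side (y axis) for the 9 genes (x axis), with 1 bar for each of the 8 libraries coloured by group and CDK inhibitors left of the dashed line. *Cdk6* has 3 to 6 peaks in each library, *Cdkn1a* 1 to 3 and *Myc* 1 to 4, while *Cdkn1c* and *Cdkn2b* have none.

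*Cdkn1a* (chr17:29090976-29100727, plus strand) encodes p21, which p53 and TGF-β signals induce. Its locus had 2 and 1 peaks in untreated EpH4, 2 and 2 in EpH4 with TGF-β, 2 and 3 in untreated EpRas, and 3 and 3 in EpRas with TGF-β. EpRas thus had the higher mean (2.75 ± 0.500 against 1.75 ± 0.500, SD, n = 4 each), with an overlap at 2 peaks, and the difference of 1.0 had an exact permutation p of 0.114 (adjusted 0.785). With TGF-β the mean was 0.5 peaks higher in either line, where 2 libraries against 2 allow no p-value under 0.333. In lists of equal length the difference was 0.500 (exact permutation p = 0.714), and per 10000 peaks of the library it was 0.221 (exact permutation p = 0.600). With 5 kb on each side of the gene, which leaves out the region at -11.92 kb, the lines no longer overlapped (difference 1.00, exact permutation p = 0.0286 before adjustment). Only the regions at -0.07 and +1.77 kb, described below, are left in this window. The latter had a peak in every library, so this p restates the calls at -0.07 kb and is no further support. With this window, 440 of all 21951 protein-coding loci, those without a peak included, had more peaks in every EpRas than in every EpH4 library. With 20 kb the number was 672.

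The region over 2 annotated start sites of *Cdkn1a* (chr17:29093578-29093829, -0.07 kb) was the only 1 of the 24 with a peak in all 4 EpRas libraries and in no EpH4 library. Over all regions this pattern had a share of 1.98%. The score percentiles were 70 and 43.7 in untreated EpRas and 41.3 and 8.37 in EpRas with TGF-β. The untreated libraries ranked it higher than the treated ones, though the nearest of them, 43.7 and 41.3, were close. The 4 peaks were 209 to 246 bp wide and covered the start sites at 29093769 and 29093781, and an exon of the noncoding transcript AC167363.2 lies at their midpoint. The promoter sequence printed above was 70.2% G and C and held 1 Smad word, at 29093633-29093638, and no AP1 word. When every list was shortened to its 10821 highest-scored peaks, the region kept a peak in 2 of 4 EpRas libraries, the untreated ones, and in none of EpH4.

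A second *Cdkn1a* region lay 1.77 kb into the gene, in an intron (chr17:29095380-29095725), and was called in all 8 libraries. Its percentiles were 4.84 and 17.1 in untreated EpH4, 55.2 and 1.96 in EpH4 with TGF-β, 54.8 and 44.1 in untreated EpRas, and 84.1 and 81.5 in EpRas with TGF-β. EpRas with TGF-β stood highest, and EpH4 would lie below EpRas throughout but for its first TGF-β library. The mean was 19.8 ± 24.5 in EpH4 and 66.1 ± 19.8 in EpRas (SD, n = 4 each), and the difference of 46.3 had an exact permutation p of 0.0857 (adjusted over the 4259 regions of all 8 libraries, 0.444). Without EpH4 TGF-β replicate 1 the difference was 58.1 (exact permutation p = 0.0286 before adjustment), and without each other library it was 40.3 to 53.7. Leaving out the library that overlapped fixed this p in advance, so it is no support. With that library left out, 494 of the 4259 regions had a higher percentile in every EpRas than in every EpH4 library. Shortened to equal length, the lists kept a peak there in 2 EpH4 and 4 EpRas libraries. The TGF-β difference was 17.6 percentiles in EpH4 and 33.4 in EpRas, and 25.5 over both lines (exact permutation p = 0.314, adjusted 0.997). None of the 5 regions of all 8 libraries separated the treatments, as 2.42% of such regions in the genome did with higher and 0.446% with lower percentiles in every TGF-β library. The AP1 word TGACTCA stands at 29095572-29095578 in its sequence.

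The third region, at -11.92 kb (chr17:29078871-29079241), covers an exon of *Trp53cor1*, the long noncoding RNA also known as lincRNA-p21, 0.123 kb from its start. Its percentiles were 47.8 in 1 untreated EpH4 library, 57.0 and 67.7 in EpH4 with TGF-β, 18.4 in 1 untreated EpRas library, and 45.5 and 38.2 in EpRas with TGF-β. All 4 TGF-β libraries and 2 of 4 untreated libraries thus had a peak there, 1 in each line.

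*Cdkn1b* (chr6:134920401-134925513, plus strand) encodes p27, which binds cyclin E-Cdk2 in resting cells. Its locus had 1 and 0 peaks in untreated EpH4, 0 and 0 in EpH4 with TGF-β, 2 and 1 in untreated EpRas, and 2 and 1 in EpRas with TGF-β. EpRas had more (1.50 ± 0.577 against 0.250 ± 0.500, SD, n = 4 each), with 1 EpH4 library reaching the lower EpRas ones, and the difference of 1.25 had an exact permutation p of 0.0857 (adjusted 0.785). The share of peaks on chromosome 6 was lower in EpRas, and its part in this difference was not tested. As peaks per 1000 peaks on the same chromosome, EpRas (1.36 to 2.76) lay above EpH4 (0 to 1.28) in every library, a pattern of 3.43% of loci (difference 1.57, exact permutation p = 0.0286, adjusted 0.365). In lists of equal length the difference was 0.

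The peaks of *Cdkn1b* scored low and fell in 3 regions. That over the start site (chr6:134920140-134920458, -0.10 kb) had a peak in EpRas untreated replicate 1 at percentile 43.5 and in EpRas TGF-β replicate 1 at 2.56, the longer list in either group. The region at +8.28 kb (chr6:134928532-134929049), 0.301 kb from the start of the noncoding RNA *Lockd*, had peaks in 3 EpRas libraries at 6.51, 16.2 and 22.9 and in no EpH4 library. Over all regions, 5.83% had peaks in at least 3 EpRas libraries and in no EpH4 library. The third, at -3.12 kb (chr6:134917143-134917427), was called in 1 untreated library of either line, at 23.0 in EpH4 and 10.7 in EpRas.

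*Cdkn1c* (chr7:143458339-143461050, minus strand), the imprinted gene of p57, had no peak within 20 kb in any of the 8 lists. Its start sites lay in a stretch of 144 kb without a region. The genes of p16 and p15 lie side by side on chromosome 4, *Cdkn2a* at chr4:89274471-89294653 and *Cdkn2b* at chr4:89306299-89311039, both on the minus strand. No library had a peak over either gene, including both first exons of *Cdkn2a* (from which p16 and p19Arf start), and the start sites of both genes sat in a stretch of 123 kb without a region. At day 8 of TGF-β, *Cdkn2b* was thus without a peak in all 4 treated libraries, as in all 4 untreated ones.

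**Figure D2:**
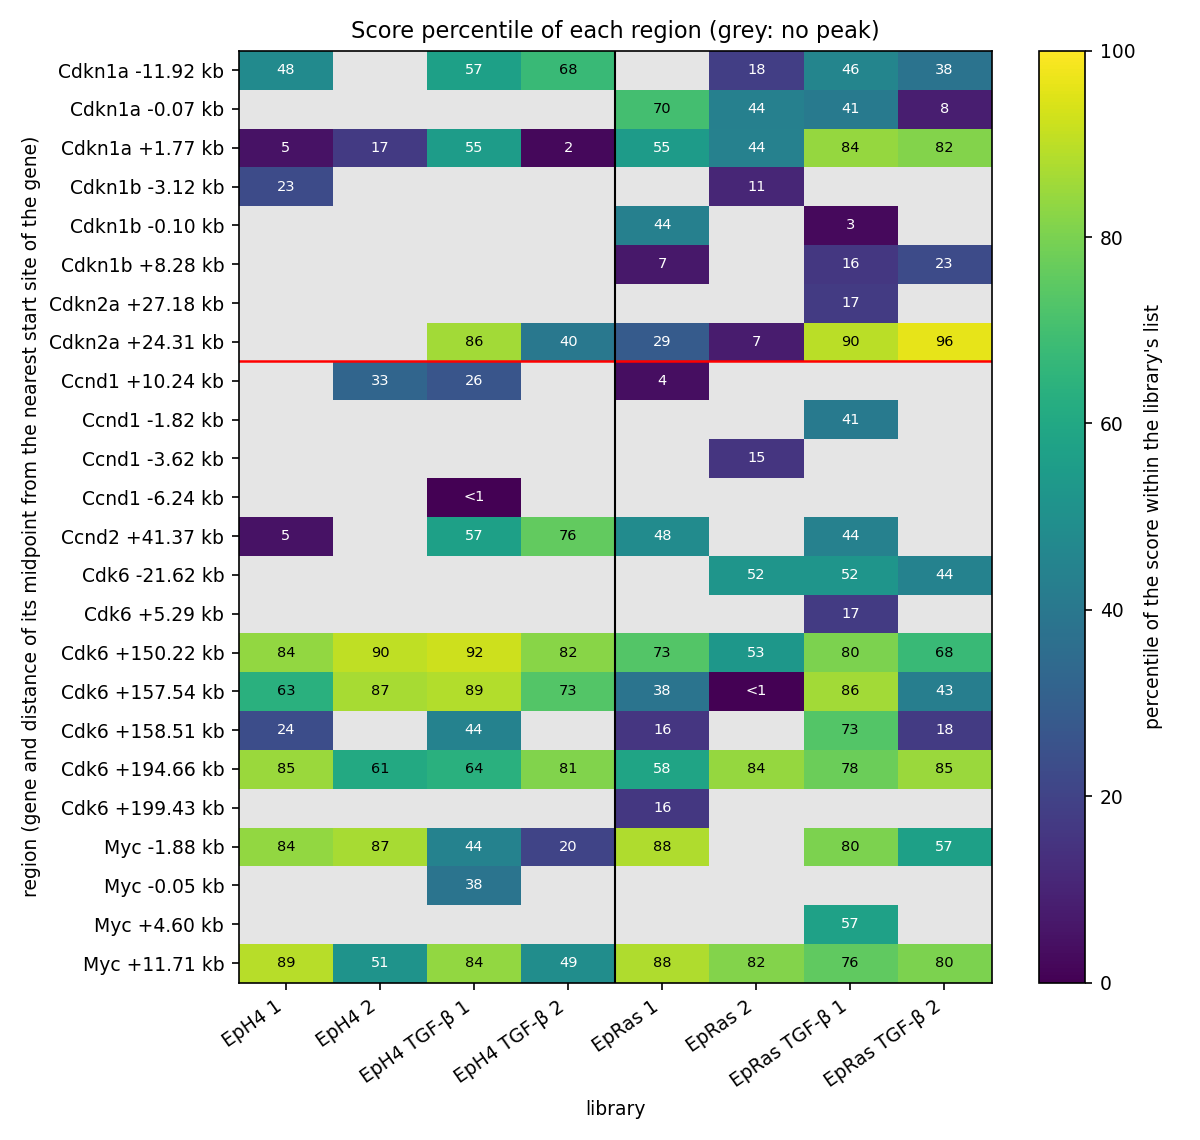
Score percentile within the library's list (colour and number) of each of the 24 regions (rows, by gene and distance from the start site, inhibitors above the red line) in each library (columns, EpH4 left and EpRas right of the black line), grey where no peak was called. The promoter region of *Cdkn1a* at -0.07 kb is filled in the 4 EpRas columns alone, the region downstream of *Cdkn2a* at +24.31 kb is empty in the 2 untreated EpH4 columns, and 5 rows are filled throughout.

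The main region downstream of *Cdkn2a* lay 16.6 kb beyond its 3′ end, in an intron of the noncoding RNA *Gm12606* (chr4:89257595-89258167, +24.31 kb). It had no peak in the 2 untreated EpH4 libraries, percentiles of 86.3 and 40.0 in EpH4 with TGF-β, 28.6 and 7.48 in untreated EpRas, and 89.5 and 96.3 in EpRas with TGF-β. In both lines the TGF-β libraries ranked higher than the untreated ones, every treated library standing above every untreated library that had a peak. The peaks of EpRas with TGF-β were also the widest, 466 and 554 bp, against 372 and 224 bp in untreated EpRas. Its middle 300 bp held 3 AP1 words (TGAGTCA), at 89257789-89257795, 89257975-89257981 and 89258024-89258030.

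In lists of equal length this region was called in all 4 TGF-β libraries and in no untreated library, the pattern of 61 of 25009 regions (0.244%). In the lists as deposited it was not, since both untreated EpRas libraries had a peak of low score, and 0 of the 24 regions separated the treatments (0.320% of all regions were called in every TGF-β and no untreated library, 0.0188% the reverse). As a number of peaks, the *Cdkn2a* locus had 0 and 0 in untreated EpH4, 1 and 1 in EpH4 with TGF-β, 1 and 1 in untreated EpRas, and 2 and 1 in EpRas with TGF-β. Neither contrast passed (difference 0.75 for TGF-β and 0.75 for the line, exact permutation p = 0.286 each, adjusted 1.00 each). With lists of equal length the TGF-β difference was 1.00 (exact permutation p = 0.0286, adjusted 1.00) and the line difference was 0. The second peak of EpRas TGF-β replicate 1, at percentile 17.3, lay at +27.18 kb, 19.5 kb beyond the gene and just inside the window, and held 2 AP1 words.

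**Figure D3:**
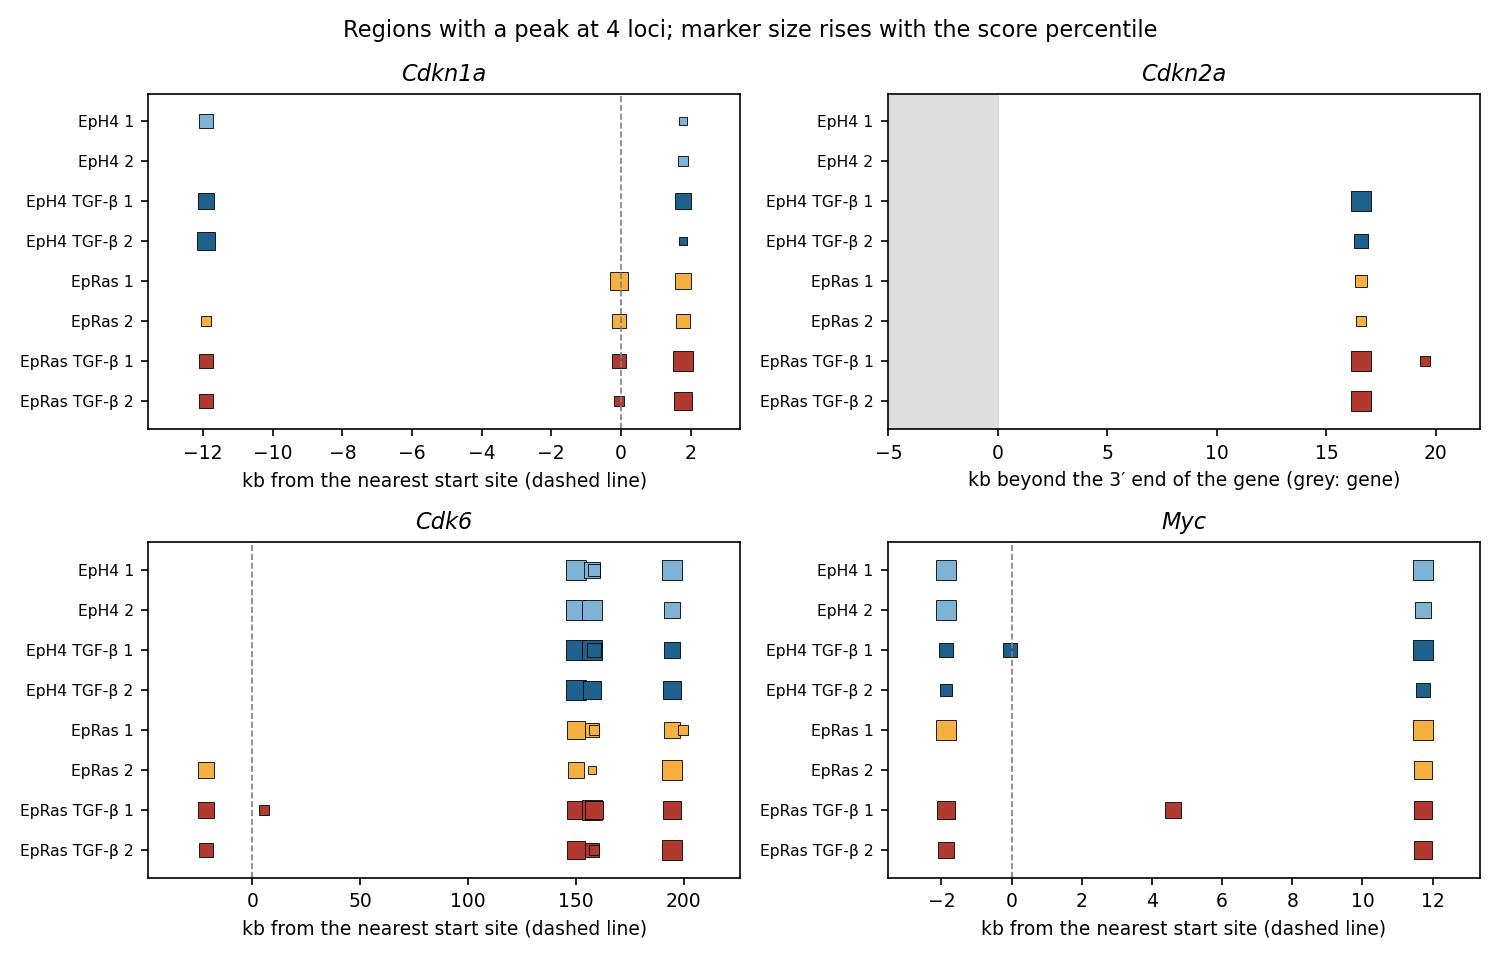
Regions at 4 loci by library (y axis) and distance in kb from the nearest start site, or for *Cdkn2a* beyond the 3′ end of the gene (x axis), with 1 square for each called region, larger for a higher score percentile and coloured by group. At *Cdkn1a* the squares at the dashed start site are of EpRas alone, at *Cdkn2a* the squares 16.6 kb beyond the gene are missing in untreated EpH4, and at *Cdk6* and *Myc* the same distal regions recur in nearly every library.

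Among the drivers, *Ccnd1* (chr7:144929931-144939925, minus strand), the gene of cyclin D1, a known target of Ras signalling, had 0 and 1 peaks in untreated EpH4, 2 and 0 in EpH4 with TGF-β, 1 and 1 in untreated EpRas, and 1 and 0 in EpRas with TGF-β. The means were the same in both lines (0.750 ± 0.957 in EpH4 and 0.750 ± 0.500 in EpRas, SD, n = 4 each; exact permutation p = 1.00, adjusted 1.00). No peak covered its start site. Of its 4 regions, 3 were called in 1 library each: -1.82 kb in EpRas TGF-β replicate 1 at percentile 41.4, -3.62 kb in EpRas untreated replicate 2 at 15.4, and -6.24 kb in EpH4 TGF-β replicate 1 at 0.351. The remaining region, at +10.24 kb (chr7:144929480-144929770), lies in an untranslated region of the neighbouring gene *LTO1* and was called in 3 libraries at 32.7, 26.3 and 3.58, the last in EpRas.

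*Ccnd2* (chr6:127125162-127152193, minus strand), the gene of cyclin D2, had 1 region, at +41.37 kb (chr6:127109469-127109807), which is 0.0880 kb from the start of *Tigar*, a regulator of glycolysis, and 15.5 kb beyond *Ccnd2*. Its percentiles were 5.04 in 1 untreated EpH4 library, 57.0 and 75.9 in EpH4 with TGF-β, 48.3 in 1 untreated EpRas library and 44.1 in 1 EpRas library with TGF-β. Calls were divided between the lines (3 of 4 in EpH4, 2 of 4 in EpRas). The start sites of *Ccnd2* itself sat in a stretch of 156 kb without a region.

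*Cdk6* (chr5:3341485-3531008, plus strand) encodes a kinase that D-type cyclins activate and Ink4 inhibitors block. It is the longest of the 9 genes and had the most peaks: 4 and 3 in untreated EpH4, 4 and 3 in EpH4 with TGF-β, 5 and 4 in untreated EpRas, and 6 and 5 in EpRas with TGF-β. EpRas had more (5.00 ± 0.816 against 3.50 ± 0.577, SD, n = 4 each), the lines overlapping at 4 peaks, and the difference of 1.5 had an exact permutation p of 0.0857 (adjusted 0.785). The share of peaks on the chromosome was lower in EpRas, and its part in this difference was not tested. In lists of equal length the difference was 0, and with the higher-scored peaks alone it turned to -0.250. TGF-β changed the mean by 0 in EpH4 and by 1.0 in EpRas. The 2 annotated start sites had no peak in any library and lay in a stretch of 27.0 kb without a region.

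3 of the 5 regions called in all 8 libraries belonged to *Cdk6*, and none was near its start. The region at +150.22 kb, in an intron (chr5:3494361-3494710), had percentiles of 83.9 and 90.4 in untreated EpH4, 92.4 and 82.2 in EpH4 with TGF-β, 73.2 and 52.9 in untreated EpRas, and 80.3 and 67.6 in EpRas with TGF-β. Every EpRas library ranked it lower than every EpH4 library, a pattern of 1.41% of the 4259 regions called in all 8 (6.72% had the reverse). The means were 87.2 ± 4.96 in EpH4 and 68.5 ± 11.6 in EpRas (SD, n = 4 each), a difference of -18.7 with an exact permutation p of 0.0286, the smallest possible, and 0.352 after adjustment, so that it did not pass over all regions. The difference in lists of equal length was -35.6 (exact permutation p = 0.0286 before adjustment). The lower share of peaks of chromosome 5 in EpRas moves with this difference, and its part in it was not tested. Over all 4259 regions the median difference was 5.68 percentiles higher in EpRas. The sequence holds TGACTCA at 3494526-3494532.

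The intronic region at +157.54 kb (chr5:3501645-3502054) went the same way, at 63.3, 87.1, 88.6 and 73.4 in EpH4 and 38.4, 0.203, 86.1 and 42.8 in EpRas. EpRas TGF-β replicate 1 stood among the EpH4 values, and the difference of -36.2 had an exact permutation p of 0.0857 (adjusted 0.444). Without that library it was -50.9 (exact permutation p = 0.0286 before adjustment), and without EpRas untreated replicate 2, the lowest, it was -22.3 (exact permutation p = 0.200). Leaving out the library that overlapped fixed the smaller p in advance, so it is no support. With that library left out, 176 of the 4259 regions had a lower percentile in every EpRas than in every EpH4 library. At +158.51 kb, next to this region, 2 of 4 EpH4 libraries (23.6 and 44.4) and 3 of 4 EpRas libraries (15.8, 73.3 and 17.5) had a peak.

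The region at +194.66 kb, 7.97 kb beyond the gene (chr5:3538801-3539152), kept high ranks everywhere: 84.8, 60.6, 63.5 and 81.0 in EpH4, and 58.4, 84.2, 77.7 and 84.8 in EpRas. The lines overlapped over almost their whole range (difference 3.78, exact permutation p = 0.829, adjusted 0.945). It held 2 AP1 words, and with the regions at +150.22 and +158.51 kb it made 3 *Cdk6* regions with one. Upstream, the region at -21.62 kb (chr5:3322119-3322430) had peaks in 3 EpRas libraries, at 52.3, 52.2 and 44.2, and in no EpH4 library. Peaks in at least 3 EpRas libraries and in no EpH4 library were found for 3 of the 24 regions, beside 5.83% of all regions. The other 2 *Cdk6* regions had a peak in a single library, +5.29 kb in EpRas TGF-β replicate 1 at 17.4 and +199.43 kb, by the start of *Fam133b*, in EpRas untreated replicate 1 at 16.3.

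*Myc* (chr15:61985391-61990374, plus strand) encodes the transcription factor c-Myc, which drives entry into the cycle and represses *Cdkn2b* and *Cdkn1a*. Its locus had the highest peak density of the 9, 5.00 per 100 kb, at percentile 93.4 of all protein-coding loci, followed by *Cdkn1a* with 4.52 at percentile 91.7. It had 2 and 2 peaks in untreated EpH4, 3 and 2 in EpH4 with TGF-β, 2 and 1 in untreated EpRas, and 4 and 2 in EpRas with TGF-β. The means of the lines were equal (2.25 ± 0.500 in EpH4 and 2.25 ± 1.26 in EpRas, SD, n = 4 each), and the TGF-β difference of 1.0 had an exact permutation p of 0.286 (adjusted 1.00).

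As a share of the peaks of the library the *Myc* counts separated the lines, but in lists of equal length they did not. Per 10000 peaks of the library they were 1.60, 1.53, 1.67 and 1.85 in EpH4 and 1.16, 0.725, 1.46 and 1.19 in EpRas. Every EpRas value was lower, as for 5.50% of protein-coding loci, with a difference of -0.529 (exact permutation p = 0.0286, adjusted 0.303). The mean count as deposited was 2.25 in both lines, and the highest count, 4, was in the longest list, EpRas TGF-β replicate 1. *Myc* was the only 1 of the 9 genes that was lower in every EpRas library per 10000 peaks. Per 1000 peaks on chromosome 15 the difference was -1.23 (exact permutation p = 0.0286, adjusted 0.365). The locus had, in lists of equal length, 2 peaks in each EpH4 library and 2, 1, 2 and 2 in EpRas (difference -0.250, exact permutation p = 1.00), and with the higher-scored peaks alone the difference was 1.00 (exact permutation p = 0.286).

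Peaks of *Myc* came mainly from 2 regions. The region at -1.88 kb (chr15:61983354-61983666) was called in 7 libraries, with percentiles of 83.9 and 87.1 in untreated EpH4, 44.4 and 20.5 in EpH4 with TGF-β, 88.1 in 1 untreated EpRas library, and 80.3 and 56.9 in EpRas with TGF-β. In EpH4 both untreated libraries ranked it higher than both treated ones. In EpRas the 1 untreated library with a peak also ranked it higher. Its score of 25.3 was, however, below the 29.43 of EpRas TGF-β replicate 1, whose list had the higher median score (18.14 against 15.05). The share of this pattern over all regions was not computed. EpRas untreated replicate 2 had no peak there, so the region entered no test. The region at +11.71 kb (chr15:61998776-61999489), 8.76 kb beyond the gene, was called in all 8 libraries, at 89.3, 51.3, 83.6 and 49.2 in EpH4 and 88.0, 81.6, 75.6 and 80.4 in EpRas. Neither contrast passed (difference 13.0 for the line, exact permutation p = 0.400, adjusted 0.739, and -5.35 for TGF-β, exact permutation p = 0.486, adjusted 0.997).

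Neither of these *Myc* regions held 1 of the words searched for in its middle 300 bp. The start site itself, at -0.05 kb, was covered by a peak in EpH4 TGF-β replicate 1 alone, at percentile 38.4. The last region, at +4.60 kb, was called in EpRas TGF-β replicate 1 alone, at 57.2.

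**Figure D4:**
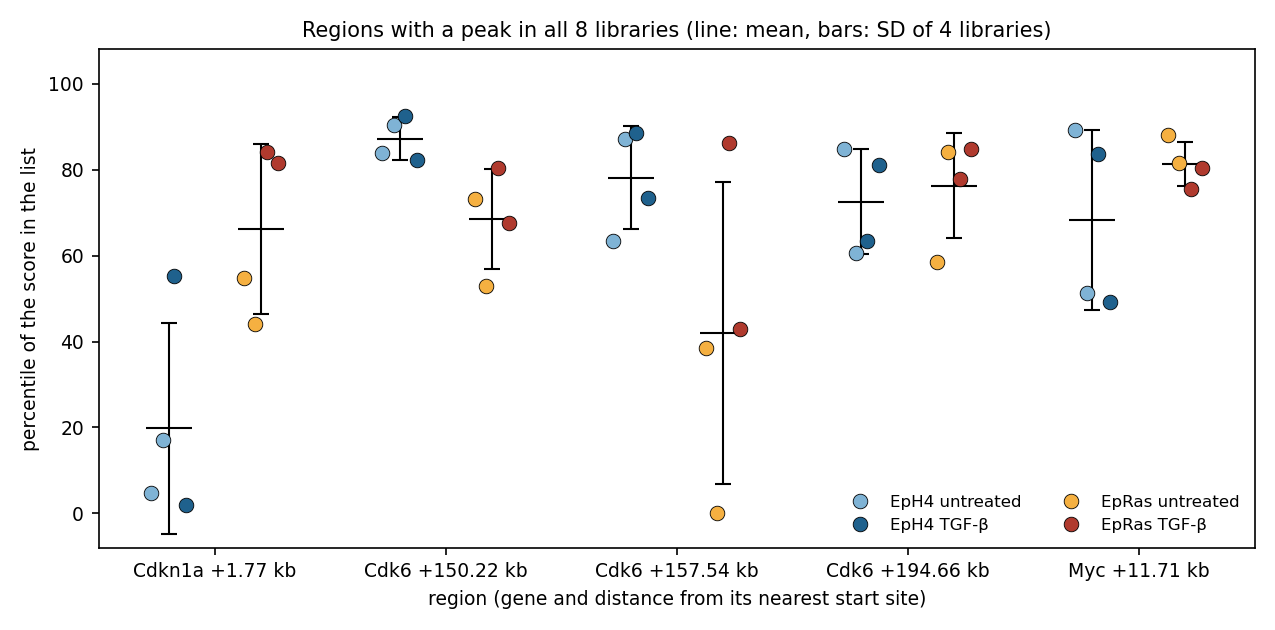
Score percentile within the list (y axis) of the 5 regions with a peak in all 8 libraries (x axis), with 1 point per library coloured by group, EpH4 left and EpRas right, and lines and bars for the mean and SD of 4 libraries. The intronic *Cdkn1a* region is at 19.8 in EpH4 and 66.1 in EpRas on average, and the *Cdk6* regions at +150.22 and +157.54 kb are lower in EpRas on average. The lines overlap in every region but that at +150.22 kb of *Cdk6*.

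Set side by side, the inhibitor loci (4 separate windows, 214 kb) had 3 and 1 peaks in untreated EpH4, 3 and 3 in EpH4 with TGF-β, 5 and 5 in untreated EpRas, and 7 and 5 in EpRas with TGF-β. Every EpRas library (2.33 to 3.27 peaks per 100 kb) lay above every EpH4 library (0.467 to 1.40), with means of 2.57 ± 0.467 and 1.17 ± 0.467 (SD, n = 4 each). The driver loci (4 windows, 392 kb) had 7, 6, 10 and 6 peaks in EpH4 and 9, 6, 12 and 7 in EpRas. Their densities overlapped, with means of 1.85 ± 0.483 in EpH4 and 2.17 ± 0.676 in EpRas. The whole genome had 0.498 and 0.689 peaks per 100 kb on average, so that the lists of EpRas were longer too. In lists of equal length the difference at inhibitors was 0.233 per 100 kb instead of 1.40, and that at drivers was -0.192 instead of 0.319. The treatments overlapped in both sets, with 2.10 ± 0.894 with TGF-β against 1.63 ± 0.894 without at inhibitors and 2.23 ± 0.703 against 1.79 ± 0.361 at drivers. Since the genes were chosen with results of these data known, no p-value is given for either set.

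**Figure D5:**
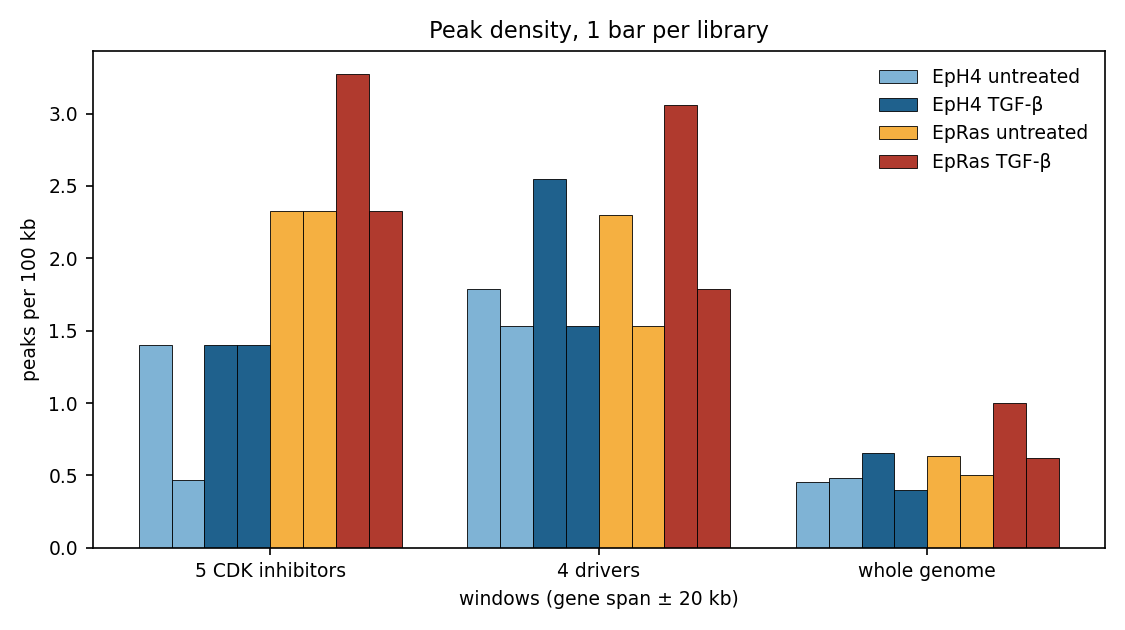
Peaks per 100 kb (y axis) in the windows of the 5 CDK inhibitors, the windows of the 4 drivers and the whole genome (x axis), with 1 bar for each library coloured by group. At the inhibitors the EpRas bars (2.33 to 3.27) stand above the EpH4 bars (0.467 to 1.40), while at the drivers the lines overlap.

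By region, 1 of 8 inhibitor regions and 4 of 16 driver regions had a peak in all 8 libraries, together 20.8% against 11.4% of all regions. A single library accounted for 1 of 8 inhibitor regions and 7 of 16 driver regions, together 33.3% against 31.6% of all regions, and 4 of these 8 came from EpRas TGF-β replicate 1, the longest list, which gave 47.9% of such regions in the genome. Regions with a peak in some EpRas library and in no EpH4 library numbered 10 of 24 (36.9% of all regions), and 6 of 20 without EpRas TGF-β replicate 1 (25.7%). The reverse was seen for 2 of 24 (14.2% of all regions), and 0 of 24 had a peak in all 4 EpH4 libraries and no EpRas library (0.752%). No region was called in both libraries of 1 group and in no other library.

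A promoter peak, within 2 kb of a start site, was found for 4 of the 9 genes in at least 1 library, beside 42.5% of all protein-coding genes, and for 1 of the 9 in all 8 libraries, beside 10.6%. It was called for *Cdkn1a* in 8 libraries, for *Myc* in 7, for *Cdkn1b* in 2 and for *Ccnd1* in 1. For *Cdkn1a* the call in EpH4 was due to the intronic region at +1.77 kb.

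Further out, between 20 and 50 kb from the genes, *Ccnd1* had 5 more regions, *Cdk6* had 4, *Cdkn1b* had 3, and *Cdkn1a* and *Cdkn1c* had 2 each. *Cdkn2a* and *Cdkn2b* had 1 each, and *Ccnd2* had 0. That of *Cdkn2b* was the region at +24.31 kb of *Cdkn2a* described above. *Myc* had 1, which was called in all 8 libraries, and 1 of those of *Cdk6* was as well. None was called in all 4 libraries of 1 line or treatment and in none of the other.

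Of the 24 regions, 7 held an AP1 word in the 300 bp around their midpoint (29.2%), beside 34.7% of 37228 regions. These were 3 of 8 inhibitor regions and 4 of 16 driver regions, and 3 of the 5 regions of all 8 libraries (32.5% of such regions in the genome). A Smad word (CAGACA or GTCTAGAC) was found in 4 regions (25.6% of all regions), the RUNX word TGTGGTT in 1 (11.5%), the E-box CACGTG, to which Myc and Max bind, in 1 (5.88%, at -3.62 kb of *Ccnd1*), an ETS word (ACGGAAA or ACGGAAG, or either with C in place of the leading A) in 1 (12.3%) and an E2F word (TTTGGCGC or TTTCGCGC) in 0 (0.663%). Both strands were searched and no match is a test of binding.

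Of 33 further cell cycle genes, from the other CDK inhibitors through cyclins, E2F factors, the Rb family, the Myc network and Id factors to the p53 and FoxO genes, 31 (93.9%) had a peak in some library, beside 71.8% of all protein-coding loci. 1 of the 33 had fewer peaks in every EpRas than in every EpH4 library (0.552% of protein-coding loci with a peak) and 0 had more (4.27%), while 0 separated the treatments. *Foxo3*, a transcription factor that induces *Cdkn1b*, had 3 peaks in each EpH4 library and 1, 2, 1 and 1 in EpRas (difference -1.75, exact permutation p = 0.0286, adjusted 0.593). It did not pass after adjustment. The separation of the lines was lost in lists of equal length (difference -1.50, exact permutation p = 0.114), and no peak difference was left with the higher-scored peaks alone. The median locus of the 33 had 1.25 peaks per library, beside 0.875 over the 9 genes and 0.75 over all protein-coding loci.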

How the data were processed

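FAIRE-seq had been run on 8 libraries of EpH4 and EpRas cells. According to the submitters' processing notes and the study's methods, the authors used Bowtie2 for Ion Proton reads against mm10 and MACS2 (2.0.9) for peaks, giving 1 list per library. The deposited lists hold a position and a score per peak, and what the score measures is not given in the sources used here. They hold no counts, so no interval for depth could be given. Peaks were assigned to GENCODE vM21 (basic) spans with 20 kb on each side (Python 3.11.15, numpy 2.4.6, pandas 2.3.3) and merged over lists into regions. They were compared, 4 libraries against 4, by a two-sided exact permutation test (70 assignments). Adjustment was by the Benjamini-Hochberg method, for counts over all protein-coding loci with a peak and for percentiles over the 4259 regions called in all 8 libraries. The scripts were tested on simulated data. Within a line, 2 against 2 libraries were left untested.

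The genes, the further cell cycle list, the markers and the words were chosen with earlier results of these data known. Named regions were those over a start site, called in all 8 libraries, separating a contrast, of 1 group alone or of the highest mean percentile at a locus, and the others are given for completeness. Of the further list, genes whose counts separated a contrast were named. Alternatives were other windows (5 and 50 kb), lists of equal length (10821 peaks), peaks scored at least 15.51 (the median of all lists), counts per 10000 peaks of the library or 1000 of the chromosome, and leaving out each library. P-values measure only the spread between these libraries.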

Additional observations from a re-analysis of the deposited data

How the results depend on the processing

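The replicate block aside, counts at the 7 loci with a peak kept their side of the exact permutation test's threshold in 202 of 210 recomputed values. Of 165 values whose difference was not 0 at the outset, 146 kept their direction, 15 went to 0 (*Cdkn1b*, *Cdkn2a* and *Cdk6* by line with lists of equal length among them) and 4 turned. *Ccnd1* in both contrasts and *Myc* by line began at 0 and had no direction. Percentiles of the 5 regions of all 8 libraries kept their side in 90 of 96 values and their direction in 91. The values that turned were those of *Cdk6* by line with higher-scored peaks alone (-0.250) and by TGF-β per 10000 peaks of the library (-0.285) and per 1000 of the chromosome (-0.307), the TGF-β difference of *Cdkn1b* without EpRas untreated replicate 1 (0.0833, with a range of -0.667 to 0.0833 over the libraries left out), that of the region +194.66 kb of *Cdk6* with lists of equal length (-5.44 by line, -2.03 by TGF-β) and by line without EpH4 untreated replicate 2 (-0.173, range to 9.73), that of +150.22 kb of *Cdk6* by TGF-β without EpRas untreated replicate 2 (-1.90, range to 10.6), and that of +11.71 kb of *Myc* by TGF-β without EpH4 TGF-β replicate 2 (2.31, range from -14.1). The causes were not tested. Leaving out 1 library brought *Cdkn1a* to 1.25 (without EpRas untreated replicate 1), *Cdkn1b* to 1.50 (without EpH4 untreated replicate 1) and *Cdk6* to 1.83 (without EpRas untreated replicate 2), each at an exact permutation p of 0.0286, with ranges of 0.75 to 1.25, 1.08 to 1.50 and 1.17 to 1.83 over all libraries. In each case the library left out was one at which the lines overlapped, so its omission fixed this p in advance. The lower percentile at +150.22 kb of *Cdk6* lay between -20.4 and -17.0 without each EpH4 library, at an exact permutation p of 0.0571, and *Foxo3* stayed at -1.75 with the same p. With lists of equal length +150.22 kb went to -35.6.

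With higher-scored peaks alone the 9 loci held 14 regions, 0 of them in all 8 libraries and 0 in all of EpRas and none of EpH4. Lists of equal length gave 15 regions, of which 3 were in all 8 libraries, 0 in EpRas alone and 1 in TGF-β alone. With 50 kb on each side there were 42, and with 5 kb 15 with 3 in all 8. Without 1 library there were 20 to 24 regions, 5 to 6 in all libraries, 1 to 2 in EpRas alone and 0 in any other class. The higher density of inhibitors in EpRas (1.40 per 100 kb) was 0.467 with higher-scored peaks, 0.233 with lists of equal length, 0.881 with 50 kb, 2.43 with 5 kb and 1.17 to 1.48 without 1 library. Their TGF-β difference (0.467) was -0.270 with 5 kb, 0.934 with higher-scored peaks and 0.0778 to 0.700 without 1 library. The driver difference by line (0.319) turned to -0.192 with lists of equal length, was 0.184 to 0.317 with the other settings and 0.0213 to 0.553 without 1 library. By TGF-β (0.447) it was 0.158 to 0.575 and 0.170 to 0.681.

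Over all loci, those with more peaks in every EpRas library numbered 310 with lists of equal length, 1107 with 50 kb, 440 with 5 kb and 695 to 1272 without 1 library. Those with fewer numbered 21 with higher-scored peaks, 316 with lists of equal length, 867 and 692 per peaks of the library and of the chromosome, and 91 to 214 without 1 library. With TGF-β, more peaks were found at 32 loci with lists of equal length, 96 with 50 kb, 111 and 125 on the 2 relative scales and 69 to 424 without 1 library, and fewer at 0 with higher-scored peaks, 45 with lists of equal length, 4 with 50 kb, 3 with 5 kb, 227 and 290 on the relative scales and 7 to 50 without 1 library. Regions of all 8 libraries with a higher percentile in EpRas numbered 131, and with a lower one 99, in lists of equal length (320 to 500 and 79 to 176 without 1 library). With TGF-β the numbers were 35 and 31 (127 to 285 and 33 to 90).

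Correlations between groups of the deviations from group means, for the same replicate number, lay between -0.065 and 0.175. With 2 libraries in each group they cannot decide whether the same replicate number marks pairs. With the replicate number as a block (16 assignments, smallest p 0.125), the difference of *Cdkn1a* by line was 1.0 (exact permutation p = 0.250), those of *Cdkn1b* and *Cdk6* were 1.25 and 1.5 (0.125 each), and that of *Cdk6* +150.22 kb was -18.7 (0.125). The block allows no call.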
